A study of Harpegnathos saltator with 37 samples.

Results

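Obp10 (LOC105188059) and Ir25a (LOC105190172) are chemosensory genes of the ant Harpegnathos saltator, and both were measured in the central brain rather than in the antenna. They were found as the rows that carry these NCBI symbols, which gave 2 of the 14001 genes in the deposited table. Both were selected on earlier results from the same libraries: Obp10 on its lower level in older adults, and Ir25a on its lower level in pupae. Their age and stage differences are therefore given as descriptions without a test, and only the caste differences and their change with time were tested.

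Odorant binding proteins are small, soluble, secreted proteins. In insect antennae they carry odorants through the fluid that bathes the sensory neurons, and members of the family are also found in tissues with no sense of smell. Ir25a belongs to the ionotropic receptors, a family of ion channels that descends from ionotropic glutamate receptors. In Drosophila, Ir25a is a widely used co-receptor that joins with tuning receptors to sense odours, tastes, humidity and temperature, while Ir8a and Ir76b serve as the other co-receptors and Orco is the co-receptor of the separate odorant receptor family.

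The study profiled polyadenylated RNA of central brains in 37 libraries from 7 groups. Callow females aged 5 days were set up in nests of 25 with 3 males and no queen, a condition in which some of them duel and become gamergates, that is, workers that mate and lay eggs. The central brain was what stayed after dissection took away the gnathal ganglion, the optic lobes and roughly 95% of the antennal lobes, the first relay of smell. The groups were late pupae (4 libraries), dueling gamergates 10 days after isolation, called duelers here (5), workers at day 10 (4), gamergates at day 20 (5), workers at day 20 (4), dominant gamergates at day 120 (6), which were recognised by mature oocytes, and hunting workers at day 120 (9), scored for hunting from day 100 on. Dueling was watched for during the first weeks. The labels give no strain, pooling or nest of origin for any library, so the p-values measure the spread between libraries, which may in part be technical.

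Values are FPKM, read fragments per kilobase of gene model, divided by a scaling factor for each library, so levels of different genes can be set side by side. That factor was not the summed reads of the library, as given under the processing. Whole reads recovered from the FPKM steps summed to between 9.2 and 55.78 M per library. Of the neuronal markers, 7 of 8 had a matching symbol, and their summed FPKM lay between 301.9 and 1192. Of the glial markers, 5 of 8 were matched, with sums from 119.4 to 750.5. Of the photoreceptor and optic lobe markers, 7 of 10 were matched, with sums from 5.88 to 999.6, so libraries differed widely in these transcripts. No matched marker of these 3 lists was at 0 in every library. Each stage or day carried its own batch number in the submitters' internal references: pupae in batch 3, day 10 in batch 2, day 20 in batch 5, and day 120 in batches 1 and 4. Age and stage therefore cannot be told apart from batch. At day 120 age also cannot be told apart from role, as those libraries are of hunting workers and dominant gamergates. Caste was compared within a batch at days 10 and 20, and with a batch term at day 120. Among pupae, replicate 2 stood apart from the other 3, and results that rest on it are given with and without it.

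Obp10 was one of the most abundant transcripts of these brains, whereas Ir25a was a low one. By FPKM, Obp10 ranked between 1 and 55 among all genes of a library, and it was first in pupa replicate 2. Its level ran from 240.8 to 1537.4 FPKM, which rested on 3674 to 32906 reads. Ir25a ran from 1.1 to 8.58 FPKM, on 163 to 2863 reads, and ranked between 4252 and 8978. Counting error was 7.83% in the library with the fewest Ir25a reads and at most 1.65% for Obp10, below the spread between libraries in every group.

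In pupae, Obp10 stood at 960.2, 1291.7, 768.9 and 878.6 FPKM. At day 10 it stood at 914.4, 1015.8, 540.8, 931.2 and 571.9 FPKM in duelers, against 794.8, 973.1, 1370.4 and 1537.4 FPKM in workers. Duelers 3 and 5 lay below all 4 workers, workers 3 and 4 lay above all 5 duelers, and the ranges overlapped. At day 20 it stood at 880.9, 542.7, 669.9, 464 and 984.8 FPKM in gamergates, against 711.4, 553.2, 748.5 and 542.7 FPKM in workers. The 4 workers fell inside the range of the gamergates. At day 120, dominant gamergates had a lowest value of 249.3, a median of 295 and a highest value of 319.5 FPKM, against 240.8, 308.6 and 681.5 FPKM in hunting workers. The 6 gamergate libraries were tightly grouped. Hunting workers 2, 3, 4 and 7 lay above all of them, at 448.9, 656.1, 361.3 and 681.5 FPKM.

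In pupae, Ir25a stood at 1.21, 4.56, 1.1 and 1.33 FPKM, so replicate 2 lay far above the other 3 and inside the adult range. At day 10 it stood at 4.81, 5.71, 8.58, 3.64 and 6.86 FPKM in duelers, against 6.14, 6.2, 5.29 and 5.68 FPKM in workers. The workers sat close together inside the wide range of the duelers. At day 20 it stood at 5.1, 4.41, 5.68, 3.81 and 6.82 FPKM in gamergates, against 5.95, 5.65, 3.61 and 3.82 FPKM in workers. At day 120 the lowest, median and highest values were 3.7, 5.03 and 5.55 FPKM in dominant gamergates, against 3.77, 4.96 and 7.28 FPKM in hunting workers. At both ages the 2 castes overlapped over most of their range.

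**Figure D1:**
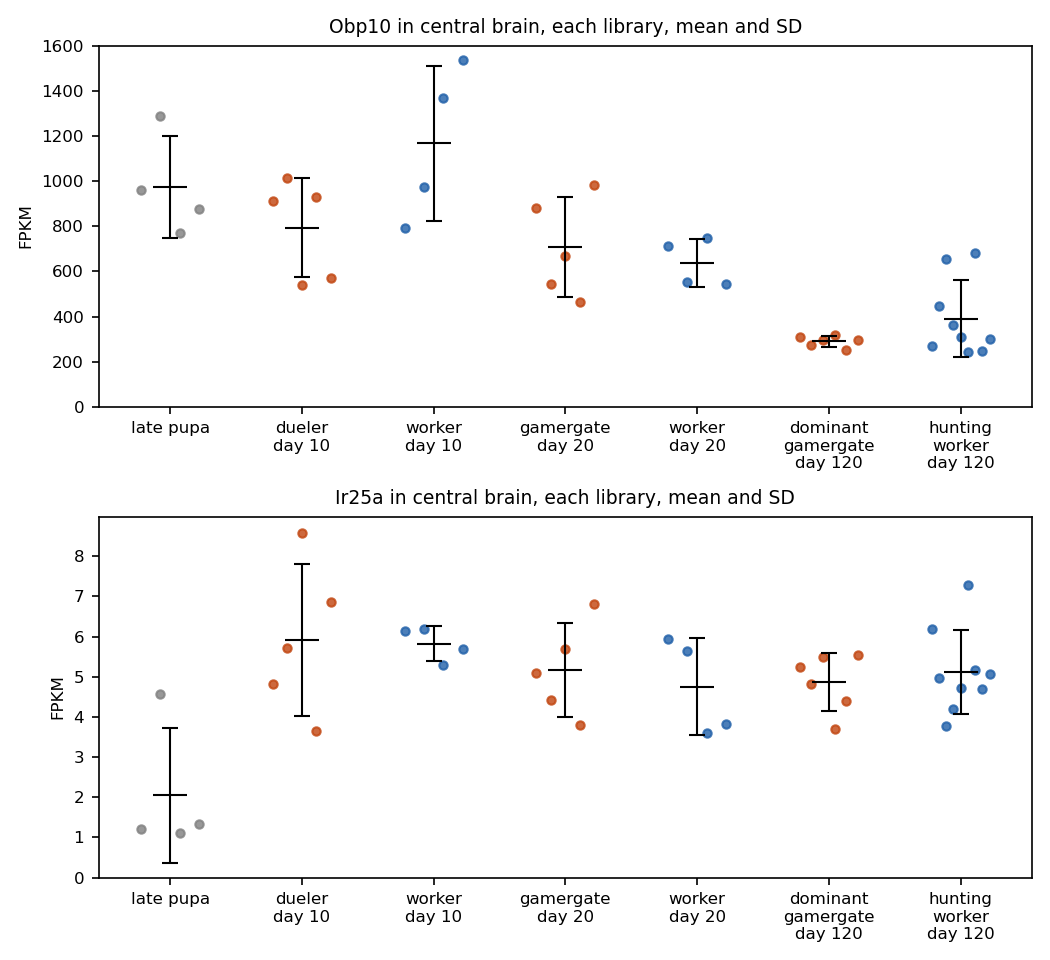
Level of Obp10 (upper panel) and Ir25a (lower panel) in FPKM, with 1 point per library, the group mean as a bar and the SD as whiskers. Obp10 is lowest at day 120, where dominant gamergates average 289.6 FPKM and hunting workers 390.5 FPKM, and Ir25a is lowest in pupae, where 3 of 4 libraries lie between 1.1 and 1.33 FPKM.

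The question behind the caste comparisons was whether becoming a gamergate changes the expression of these genes in the central brain, and neither gene passed the test at any day. Differences are on the scale log2(FPKM + 0.5) and were tested with limma over 9986 genes with Benjamini-Hochberg adjustment and a threshold of 0.05. At day 10, Obp10 averaged 794.8 ± 221.3 FPKM in duelers (SD, n = 5) and 1168.9 ± 343.8 FPKM in workers (SD, n = 4). The log2 difference was -0.56 (SE 0.28, 95% interval -1.12 to 0.01), with an adjusted p of 0.761 in limma, and 2 of 5 duelers lay below every worker. In this comparison 0.02% of the tested genes were called. The unadjusted limma p for Obp10 was 0.0526, and 547 of the 9986 genes had an unadjusted p under 0.05.

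At day 20, Obp10 averaged 708.5 ± 220.7 FPKM in gamergates (SD, n = 5) and 638.9 ± 106.3 FPKM in workers (SD, n = 4). The log2 difference was 0.11 (SE 0.28, 95% interval -0.46 to 0.67), with a limma adjusted p of 1, and 0.01% of genes were called. At day 120 it averaged 289.6 ± 25.2 FPKM in dominant gamergates (SD, n = 6) and 390.5 ± 170.2 FPKM in hunting workers (SD, n = 9). That log2 difference was -0.25 (SE 0.23, 95% interval -0.72 to 0.21), with a limma adjusted p of 0.566, where 0.0601% of genes were called. The difference at day 120 had the same direction in each batch: -0.42 in batch 1, with 1 gamergate and 4 hunting workers, and -0.20 in batch 4, with 5 of each. It was -0.06 without hunting worker 7, the library with the highest Obp10 level at that day. Averaged over the 3 days, the caste difference of Obp10 was -0.23 (SE 0.15, 95% interval -0.54 to 0.07), with a limma adjusted p of 0.628 and 0.15% of genes called.

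Ir25a had nearly the same mean in both castes. It averaged 5.92 ± 1.9 FPKM in duelers and 5.83 ± 0.429 FPKM in workers at day 10, a log2 difference of -0.03 (SE 0.24, 95% interval -0.52 to 0.46, limma adjusted p = 0.982). At day 20 the means were 5.16 ± 1.16 FPKM in gamergates and 4.76 ± 1.21 FPKM in workers, a log2 difference of 0.11 (95% interval -0.38 to 0.6, limma adjusted p = 1). At day 120 they were 4.87 ± 0.722 FPKM in dominant gamergates and 5.12 ± 1.05 FPKM in hunting workers, a log2 difference of -0.08 (95% interval -0.48 to 0.32, limma adjusted p = 0.855). Within batches the day 120 difference of Ir25a was 0.14 in batch 1 and -0.15 in batch 4, so its direction was not shared. Averaged over days, it was 0.00 (95% interval -0.27 to 0.27, limma adjusted p = 0.997). Errors are SDs, and group sizes were those of the Obp10 comparisons.

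Whether the caste difference changed with time was tested as an interaction. For Obp10, the log2 caste difference at day 20 exceeded that at day 10 by 0.66 (SE 0.39, limma adjusted p = 0.895), that at day 120 exceeded that at day 10 by 0.30 (adjusted p = 1), and the day 120 minus day 20 contrast was -0.36 (adjusted p = 0.73). For Ir25a these 3 contrasts were 0.14, -0.05 and -0.19, with limma adjusted p-values of 0.945, 1 and 0.831. None passed, and 0% of all genes were called in each of the 3, with limma unadjusted p under 0.05 in 300, 320 and 646 genes. The intervals leave room for caste differences of moderate size in either gene, so alike levels in the 2 castes were not shown.

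Obp10 was lower at day 120 than at day 10 in both castes. Such contrasts are called age differences here, although age, role and batch change together in them. Hunting workers at day 120 had 390.5 ± 170.2 FPKM, against 1168.9 ± 343.8 FPKM in workers at day 10, a log2 difference of -1.62 (SE 0.25), which is 3.08-fold lower. All 9 hunting workers lay below all 4 workers of day 10. Dominant gamergates at day 120 had 289.6 ± 25.2 FPKM, against 794.8 ± 221.3 FPKM in duelers at day 10, a log2 difference of -1.32 (SE 0.26), or 2.5-fold lower, and all 6 lay below all 5 duelers. Across all genes tested, 24.6% were called in the worker comparison and 25.1% in the gamergate comparison. Since Obp10 was chosen on these contrasts, nothing is read from its place among them. In a bulk library, fewer cells that express a gene and less RNA per cell cannot be told apart.

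Between day 10 and day 120, the means of the 2 castes took different steps, but the difference between the steps did not pass the test. In workers, the mean of Obp10 was 1168.9 FPKM at day 10, 638.9 FPKM at day 20 and 390.5 FPKM at day 120, with log2 steps of -0.84 (SE 0.29) and -0.79 (SE 0.25). In the gamergate line it was 794.8, 708.5 and 289.6 FPKM at the same days, with log2 steps of -0.17 (SE 0.26) and -1.15 (SE 0.26). All 4 workers of day 20 lay below all workers of day 10, whereas 1 of 5 gamergates of day 20 lay below all duelers of day 10. Set between castes, these steps differ by the interactions above, 0.66 and -0.36, neither of which passed. At day 120, 7 of 9 hunting workers and all 6 dominant gamergates lay below every day 20 library of their caste. Workers of day 10, at 1168.9 ± 343.8 FPKM, and late pupae, at 974.9 ± 225.3 FPKM, differed by 0.24 (SE 0.29) on the log2 scale, with overlapping ranges. This direction turned with TPM (-0.27), with quantile normalization (-1.13) and with the trend in gene length removed (-0.14).

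Other measures moved alongside. The summed FPKM of 6 matched cuticle and epidermis markers lay between 7.06 and 12.9 in dominant gamergates and between 6.24 and 11.4 in hunting workers at day 120, against 43.4 to 9651.6 in duelers and 122.9 to 27135.2 in workers at day 10. The summed FPKM of 4 matched fat body markers was 2907.7 to 3648 in dominant gamergates, against 2090.2 to 2496 in duelers, and 1998.6 to 3655 in hunting workers, against 2434.4 to 2769.2 in day 10 workers. The neuronal marker sums were lower at day 120 without overlap. They were 505.4 to 586.2 in dominant gamergates, against 713.8 to 801.5 in duelers. In hunting workers they were 501.3 to 696.7, against 774.4 to 981.5 in day 10 workers. In the gamergate line the means that fell most were cpx, at 113.4 against 242.1 FPKM, and nSyb, at 121.3 against 183.2 FPKM. Means of brp and Syx1A were also lower. Rdl (113.4 against 112.8) and Syt1 (108.7 against 109.7) were near level, and para was higher (31.6 against 26.7). In hunting workers every matched neuronal marker had a lower mean than in day 10 workers, with the largest falls in cpx and nSyb. The glial marker sums were also lower at day 120 without overlap. They were 317.4 to 465 in dominant gamergates, against 545.3 to 623.1 in duelers. In hunting workers they were 254.4 to 492, against 509.1 to 750.5 in day 10 workers. These sums were mostly Gs2, which averaged 318.3 FPKM in dominant gamergates, against 514.8 in duelers. In hunting workers Gs2 averaged 285 FPKM, against 537.6 in day 10 workers. The mean of moody was also lower in both castes, whereas those of repo and Gli were higher in both. For axo it was higher in dominant gamergates (4.57 against 3.57) and near level in hunting workers (3.28 against 3.35). The part of all these transcripts in the Obp10 difference was not tested.

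Ir25a had no such course with age. Day 120 minus day 10 gave a log2 difference of -0.19 (SE 0.22) in workers and -0.25 (SE 0.23) in the gamergate line. Its group means in adults stayed between 4.76 and 5.92 FPKM. The step that set Ir25a apart was between pupa and adult. Workers of day 10 had 5.83 ± 0.429 FPKM, against 2.05 ± 1.68 FPKM in late pupae, a log2 difference of 1.49 (SE 0.25), or 2.81-fold higher, and all 4 workers lay above all 4 pupae. In this comparison 57.3% of the tested genes were called. Without pupa replicate 2 the log2 difference was 1.88, and the remaining 3 pupae lay below all 33 adult libraries, of which the lowest had 3.61 FPKM.

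**Figure D2:**
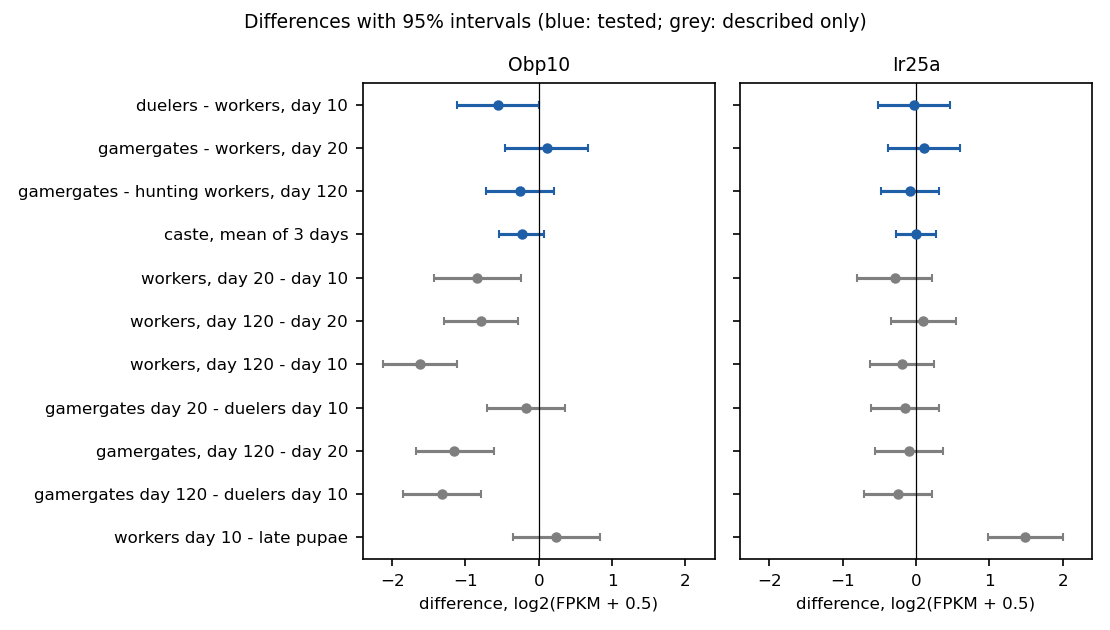
Log2 differences, on the scale log2(FPKM + 0.5), of Obp10 (left) and Ir25a (right) with 95% intervals, blue where the difference was tested and grey where it is only described. All 8 caste intervals include 0, the differences of Obp10 between day 120 and day 10 lie at -1.62 and -1.32, and the difference of Ir25a between day 10 workers and pupae lies at 1.49.

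Pupa replicate 2 was nearer to the adults in many genes. Over 1027 genes that differed by more than 1.5 on the log2 scale between workers of day 10 and the other 3 pupae, it stood at a median of 29.4% of the way to the workers, and for Ir25a at 83.1%. Pupae 1, 3 and 4, each placed in the same manner, stood at -5.64%, -8.56% and -6.85%, over 842, 832 and 846 genes. Their baselines included replicate 2, so these values are not independent of its position. The glial marker sum of replicate 2 was 486 FPKM, against 119.4 to 151.4 FPKM in the other 3, and its neuronal marker sum was 657.9 FPKM, against 301.9 to 361.7 FPKM. The adult workers of day 10 had glial sums of 509.1 to 750.5 FPKM. That gap to the pupae lay in Gs2, with means of 82.7 FPKM in pupae and 537.6 FPKM in day 10 workers. The other matched glial markers had higher means in pupae: moody 62.5 against 30.9, repo 48.6 against 33.4, axo 16.2 against 3.35 and Gli 10.6 against 2.51 FPKM. The part of these transcripts in the Ir25a difference was not tested. For Obp10, replicate 2 was the highest pupa as well, at 1291.7 FPKM.

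Ordered by mean, Obp10 was lowest in dominant gamergates of day 120, followed by hunting workers, workers of day 20, gamergates of day 20, duelers, late pupae and workers of day 10. Only the gap between hunting workers and workers of day 20, 248.4 FPKM, exceeded the larger SD of the pair, 170.2 FPKM. The ranges of all 6 pairs of neighbours overlapped. For Ir25a the order was late pupae, workers of day 20, dominant gamergates, hunting workers, gamergates of day 20, workers of day 10 and duelers. There, only the gap above pupae, 2.71 FPKM, exceeded the larger SD, 1.68 FPKM, and the adult neighbours differed by at most 0.67 FPKM. Expressed as TPM, the share of each library's length-scaled reads, the order of Obp10 changed at its top: workers of day 10 had 4965.7 TPM and pupae had 5866 TPM. Dominant gamergates stayed lowest at 1736.6 TPM. For Ir25a, pupae stayed lowest at 12.1 TPM, and the adult groups had 25.4 to 31.1 TPM.

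Libraries of 1 group also differed in the balance of short and long genes, and in duelers and hunting workers Obp10 was high where short genes were high. This balance was taken as the median log2 deviation of 1033 genes shorter than 1500 bases minus that of 3042 genes longer than 6000 bases. The model length of Obp10 was 1213 bases and that of Ir25a 10043 bases, as recovered from the FPKM steps. Hunting workers 2, 3 and 7, which had the highest Obp10 levels of their group, had values of 0.29, 0.60 and 0.33, and the other 6 had -0.12 or less. Duelers 3 and 5, which had the lowest Obp10 levels and the highest Ir25a levels of their group at 8.58 and 6.86 FPKM, had -0.51 and -0.28, against 0.10 to 0.33 in the other 3. All 6 dominant gamergates had values between -0.44 and -0.15. Elsewhere the 2 did not always go together: gamergate 5 of day 20 and pupa 2 had the highest Obp10 levels of their groups, at 0.53 and 0.43 above the group mean on the log2 scale, while their balance lay at -0.13 and 0.01 from it. The part of this balance in the spread of the 2 genes was examined by removing it.

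When the trend with gene length was removed from each library, an alternative added after these values had been seen, the SD within groups fell to 0.26 for Obp10, against 0.39 as measured, and to 0.36 for Ir25a, against 0.40 as measured, on the log2 scale. The caste difference of Obp10 was then -0.38 at day 10 (limma adjusted p = 0.677), 0.11 at day 20 and -0.09 at day 120. Its age differences were -1.50 in workers and -1.21 in the gamergate line, close to the values without the correction. For Ir25a, the caste difference was -0.05 at day 10, 0.14 at day 20 and -0.22 at day 120 (limma adjusted p = 0.559). Its age differences were -0.22 (SE 0.19) in workers and -0.4 (SE 0.2) in the gamergate line, against -0.19 and -0.25 as measured. The difference of Ir25a between day 10 workers and pupae was 1.85.

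**Figure D3:**
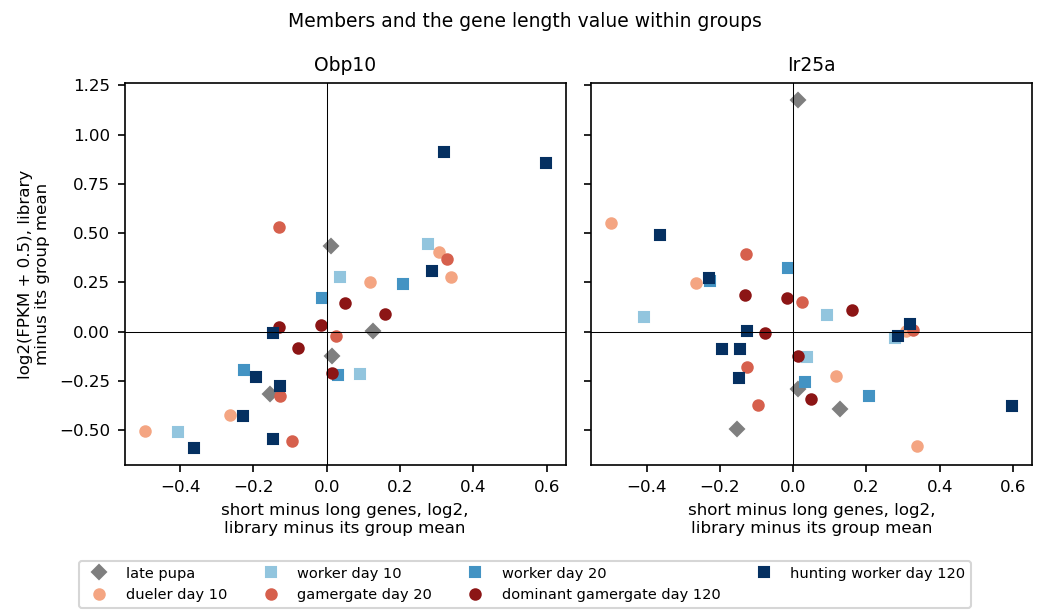
Deviation of Obp10 (left) and Ir25a (right) from the group mean on the scale log2(FPKM + 0.5), set against the deviation of each library's balance of short and long genes from its group mean, with 1 point per library. Obp10 and the balance are both high in hunting workers 3 and 7 at the upper right, while gamergate 5 of day 20, at 0.53 and -0.13, departs from this, and pupa replicate 2 lies far above the rest for Ir25a.

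The other odorant binding protein genes with a symbol were faint in these brains. Family members under a LOC number only were not examined. Of the 7 genes with an odorant binding protein symbol, Obp10 made up 98.2% to 99.4% of the summed group mean FPKM, and the other 6 together reached 5.34 to 8.69 FPKM. Obp11, Obp1, Obp5 and Obp59a passed the filter on low values, and Obp6 and Obp9 did not, with no library above 0.521 FPKM. Reads shared between family members may have been split or dropped in counting, so small values beside the abundant Obp10 are uncertain.

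Obp11 and Obp1 fell with age in both castes, in the same libraries that chose Obp10. Obp11 averaged 2.04 ± 0.923 FPKM in hunting workers and 3.37 ± 0.809 FPKM in day 10 workers, a log2 difference of -0.64 (limma adjusted p = 0.0169), and the difference was -0.66 in the gamergate line (adjusted p = 0.0188). The worker call was lost with TPM (-0.31, limma adjusted p = 0.222), with only the groups compared (adjusted p = 0.0783) and without worker 3 or worker 4 of day 10, and the gamergate call without dueler 1 or dueler 2. Obp1 differed by -0.82 in workers (limma adjusted p = 0.0153) and by -1.06 in the gamergate line (adjusted p = 0.00388), at levels of 1.37 FPKM or less, and its worker call was lost with TPM (limma adjusted p = 0.1), with batch 4 alone (adjusted p = 0.0609) and without worker 3 of day 10. Both were also higher in day 10 workers than in pupae, by 1.40 for Obp11 (limma adjusted p = 6.21e-06) and 1.35 for Obp1 (adjusted p = 0.000222), in all 20 alternatives of each. The value for Obp10 in that contrast was 0.24 (SE 0.29), and the genes were not tested against each other. Obp59a was lower in day 10 workers than in pupae, with a log2 difference of -0.41 (limma adjusted p = 0.0189), a call lost without pupa 4, worker 1 or worker 4, and Obp5 passed in none of these contrasts.

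The chemosensory proteins are another family of small soluble carriers, and 2 had a symbol. CSP2 was called lower with age, with log2 differences of -1.17 in workers (limma adjusted p = 0.00417) and -0.98 in the gamergate line (adjusted p = 0.0216), where the call was lost without dueler 1 or dominant gamergate 1. It was also lower in day 10 workers, at 1.34 ± 0.419 FPKM, than in pupae, at 4.66 ± 5.09 FPKM (log2 difference -1.10, limma adjusted p = 0.00765), a call lost with a pseudocount of 0.1, with only the groups compared and without pupa replicate 2. CSP6 was not called in these 3 contrasts.

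Of the other ionotropic receptor genes, Ir76b and Ir68a were tested between day 10 workers and pupae, and neither passed on the deposited scale. Ir76b averaged 7.07 ± 1.59 FPKM in day 10 workers and 6.26 ± 0.879 FPKM in pupae, a log2 difference of 0.15 (limma adjusted p = 0.523), which turned to -0.35 with TPM and to -0.07 with the length trend removed. In the gamergate line it was lower at day 120 than at day 10, with a log2 difference of -0.45 (limma adjusted p = 0.0493), a call lost in 13 of 24 alternatives, among them each of duelers 1, 2 and 4 and dominant gamergates 1 to 5 left out. Ir68a, which in Drosophila belongs to moisture-sensing neurons, was higher at day 120 by 0.39 in workers (limma adjusted p = 0.0381) and 0.44 in the gamergate line (adjusted p = 0.0259). Against pupae, Ir68a averaged 0.659 ± 0.149 FPKM in day 10 workers and 0.89 ± 0.174 FPKM in pupae, a log2 difference of -0.26 (limma adjusted p = 0.172), which passed with TPM (-0.82, adjusted p = 0.00964) and with quantile normalization (-0.55, adjusted p = 0.00345). The 2 calls with age were lost in 11 of 25 and 6 of 23 alternatives, including the leaving out of worker 1, 3 or 4 or hunting worker 1, 4, 5, 8 or 9, and of dueler 1, 2 or 4 or dominant gamergate 1 or 5. Ir8a reached at most 1.05 FPKM and was not tested. Orco was listed at 0 in 18 libraries and had at most 0.0839 FPKM in any.

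Among the ionotropic glutamate receptors, the relatives of Ir25a that act at synapses, 3 of 4 were called lower in day 10 workers than in pupae. In this contrast 57.3% of all tested genes were called, 2672 higher and 3054 lower, so the count is not read as a result about the family. KaiR1D, a kainate-type receptor in Drosophila, averaged 16.7 ± 1.5 FPKM in day 10 workers and 47.7 ± 6.97 FPKM in pupae, a log2 difference of -1.48 (limma adjusted p = 2.12e-09). The NMDA receptor subunits Nmdar1 and Nmdar2 differed by -0.71 (limma adjusted p = 0.000156) and -0.85 (adjusted p = 0.00633), and GluRIB did not pass. Nmdar1 was also lower with age, with log2 differences of -0.41 in workers (limma adjusted p = 0.0174) and -0.44 in the gamergate line (adjusted p = 0.0152). The worker value was 0.04 with TPM, and its call was lost with quantile normalization (limma adjusted p = 0.211), with batch 4 alone (adjusted p = 0.0607) and without worker 1 or worker 3 of day 10. The gamergate call was lost with TPM (-0.26, limma adjusted p = 0.257) and with quantile normalization (-0.32, adjusted p = 0.0851).

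Over the 12 tested genes of these lists other than Obp10 and Ir25a, none was called in any caste comparison. With age, 1 was called higher and 4 lower in workers, where 24.6% of all tested genes were called, and 1 higher and 5 lower in the gamergate line, where 25.1% were. The median log2 difference of the 12 was -0.27 in workers and -0.19 in the gamergate line, against 0.01 over all genes in both. Between day 10 workers and pupae, 2 were called higher and 5 lower, a share close to the 57.3% called among all genes, from which nothing is read about these lists.

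**Figure D4:**
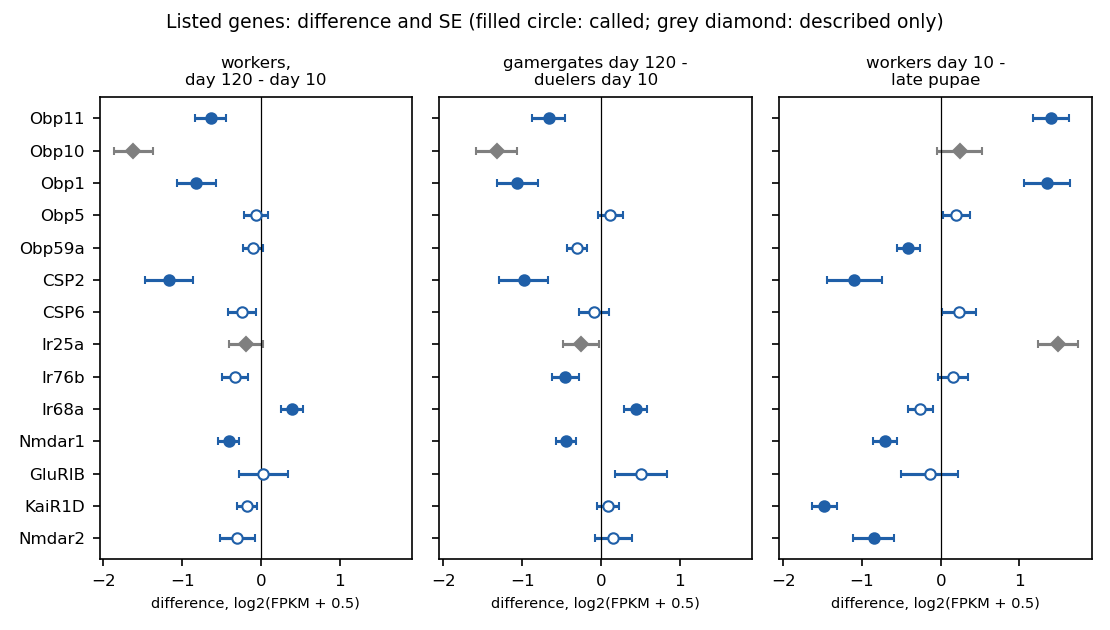
Log2 differences with SE, on the scale log2(FPKM + 0.5), of the 14 tested chemosensory and glutamate receptor genes in the 2 age contrasts and between day 10 workers and pupae. Filled circles passed the threshold of 0.05, open circles did not, and grey diamonds mark Obp10 and Ir25a, which were not tested here. Obp10 lies leftmost in both age panels and Ir25a rightmost in the pupal panel, by contrasts that chose them.

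The genes whose profile over the 37 libraries was most like that of each member were taken from 3952 genes with a symbol and a mean of at least 1 FPKM in some group. For Obp10 they were ATPsynC, with Pearson r = 0.956 over all libraries, 0.975 over the 7 group means and 0.93 within groups, NP15.6 with r = 0.932 and Fkbp12 with r = 0.919. For Ir25a they were usp, with r = 0.925 over all libraries, 0.997 over the group means and 0.836 within groups, Hk with r = 0.922 and Syt7 with r = 0.919. Spearman correlations over all libraries were lower for Ir25a, at 0.785 with usp, 0.746 with Hk and 0.816 with Syt7. For Obp10 they were 0.934 with ATPsynC, 0.894 with NP15.6 and 0.891 with Fkbp12. These correlations are descriptions over libraries that share batch, depth and gene length balance. The model lengths of usp, Hk and Syt7, at 10916, 14097 and 29022 bases, are long like that of Ir25a, and those of ATPsynC, NP15.6 and Fkbp12 are 3401, 1115 and 5247 bases.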

How the data were processed

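The authors deposited 1 table of FPKM per gene, the unit given in its file name. Per the submitters' processing notes, bcl2fastq, STAR and featureCounts were used. For their versions, the strand setting, the genome build and the FPKM step, the entry is "not given in the sources used here", and coordinates are left out. Per the labels' protocols, libraries were strand-specific (dUTP) and made from 600 ng of total RNA.

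Whole reads were recovered from the FPKM steps for 13445 of 13445 genes above 0, within 0.1 read, and 556 genes were at 0. The deposited FPKM denominators tracked size factors computed here from medians of ratios (ratio 0.9883 to 1.011), whereas summed reads were 0.814 to 1.27 times the denominator. Thus FPKM here is relative to the typical gene, and TPM shifts all genes of a group together. Symbols came from RefSeq (13989 identifiers matched, 12 did not, and 4117 genes had a symbol), so genes under a LOC number only are not in the lists.

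Genes with at least 1 FPKM in at least 4 libraries entered the fit, on log2(FPKM + 0.5), by limma 3.58.1 (eBayes with trend, under R 4.3.3), all 7 groups in 1 fit with a batch term at day 120, and adjusted over 9986 genes by Benjamini-Hochberg. The steps were tested on simulated data. Figures were drawn with matplotlib 3.10.9. The members and lists were chosen with earlier results of these data known. From each list, every gene with a mean of at least 1 FPKM in some group was open to being named, up to 8 by highest group mean, and the 3 genes most like each member by Pearson r. Genes below that level are named where they are key co-receptors or complete a family count. Alternatives varied the pseudocount (0.1, 1), the filter, scaling (TPM, quantile), weights, a voom fit on recovered reads, groups, batch, gene length trend, a replicate block and each library in turn.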

Additional observations from a re-analysis of the deposited data

Results flagged for a closer look

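Of the 14 groups examined, 7 for each gene, 1 held a library far from the others: late pupa replicate 2 had 4.56 FPKM of Ir25a, against 1.1 to 1.33 FPKM in the other 3 pupae. Its gap to the nearest other library was 0.932 of the range of the group. Chance sets apart a library in about 1 in 20 groups.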

How the results depend on the processing

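In all 446 alternative fits of the tested caste differences and interactions, neither gene passed the threshold. With 1 library left out at a time, the caste difference of Obp10 ranged from -0.73 to -0.41 at day 10, -0.03 to 0.24 at day 20 and -0.34 to -0.06 at day 120. That of Ir25a ranged from -0.17 to 0.12, 0 to 0.22 and -0.15 to 0 at those days, and from -0.04 to 0.05 averaged over days. Its interactions ranged from 0 to 0.28 (day 20 minus 10) and -0.2 to 0.09 (day 120 minus 10). Over all alternatives, the caste difference of Obp10 at day 10 ranged from -0.73 to -0.27, the latter with TPM. It was -0.34 with quantile normalization and -0.36 with array weights.

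TPM scaling gave 0.25 for the Ir25a caste difference at day 10, -0.17 for its day 20 minus day 10 interaction, 0.24 for its worker age difference, -1.17 for the Obp10 worker age difference and -0.27 for Obp10 in day 10 workers minus pupae. It moved the median of all genes by 0.27, -0.32, 0.46 and -0.51 in these contrasts. Quantile normalization gave -0.02 for the Obp10 caste difference at day 20, -1.16 for its worker age difference and -1.13 for day 10 workers minus pupae. Array weights gave 0.14 for the Ir25a day 120 minus day 10 interaction. The Ir25a caste difference averaged over days, close to 0, changed sign at 0 with quantile normalization and with voom, -0.02 with array weights and with batch 4 alone, and -0.04 with the length trend removed. Of 18 calls of other listed genes, followed through alternatives, 62 fits lost the call, and 4 fits, counting the 3 receptor values that did not pass, turned the sign: with TPM, Ir76b at 0.11 and Nmdar1 at 0.04 in the worker age contrast and Ir76b at -0.35 against pupae, and with the length trend removed Ir76b at -0.07 against pupae. The cause was not tested.

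Whether equal replicate numbers pair libraries was not settled. Over 14 same-numbered pairs, correlations of deviations ran from -0.128 to 0.45, and 7 exceeded 0.1. No pairs with different numbers were set beside them, so these values cannot tell. The main fit used no replicate block. With the replicate block the Obp10 caste difference was -0.03 at day 20 and 0.06 at day 120, and the averaged Ir25a difference was -0.01. Called genes under the block numbered 0 at each of days 10, 20 and 120, 4 averaged over days, 803 in the gamergate age contrast and, without a batch term, 213 in the worker age contrast. The block also ended the age calls of Obp11 (limma adjusted p = 0.195 in workers, 0.126 in the gamergate line), Obp1 (0.127 and 0.117), CSP2 (workers), Ir68a (both) and Nmdar1 (workers), and the pupal calls of Obp59a, CSP2 and Nmdar1 (adjusted p = 0.0517).

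Counts of called genes moved more. At day 10 (2 called) the count was 1 with the filter of 5 FPKM or TPM, 186 with array weights, and 1 to 4 leaving out a library. At day 20 (1 called) it was 3 with pseudocount 1, 4 with array weights, 2 with only these groups, and 1 to 3 leaving one out. At day 120 (6 called) it was 14 with quantile normalization, 187 with array weights, 3 with voom, 47 with no batch term, 0 with batch 4 alone or only these groups, and 0 to 13 leaving one out, with 0 without dominant gamergate replicate 1. Averaged over days (15 called) it was 9 with pseudocount 0.1 or no filter, 4 with TPM, 144 with array weights, and 5 to 22. The interactions gave 1 (day 20 minus 10) and 106 (day 120 minus 10) with array weights, 1 for day 120 minus 10 with TPM or only these groups, and 0 to 1, 0 to 2 and 0 to 3 leaving one out. Worker age calls numbered 5788 with TPM, 4874 with array weights and 1290 to 3012 leaving one out, and gamergate age calls 6138 with array weights and 1503 to 2836.

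Group sizes of 4 to 9 and the spread between libraries, not counting error, limit the precision.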
